A study of Mus musculus with 15 samples.

Results

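The comparison described here set mammary epithelial cells labelled pregnant against those labelled virgin after injection of valproic acid (VPA), an inhibitor of histone deacetylases. It used 5 of the 15 Affymetrix arrays of the series: 3 from VPA-injected mice labelled pregnant (day 21) and 2 from VPA-injected mice labelled virgin, aged 9 weeks. The remaining 10 arrays came from mice injected with 5-azacytidine (AzaC), an inhibitor of DNA methylation (3 pregnant and 3 virgin), or with PBS as the control (2 pregnant and 2 virgin). All mice were C57BL/6 females, the injections were intraperitoneal, and the cells were obtained by digesting whole glands. The dose, the time between injection and collection, the age of the pregnant mice and whether each array stands for a separate mouse are not given in the labels, so the p-values measure only the spread between these samples. Values are the authors' log2 signals, and 1 probe set, the brightest over all arrays, stood for each of 12394 genes. All changes are log2 differences, pregnant minus virgin. The small number of arrays limits their precision.

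In the mammary gland, pregnancy turns a sparse tree of ducts into dense lobules of alveoli, whose luminal cells make milk proteins, lactose and fat under the control of prolactin and STAT5. Near birth these cells leave the cell cycle and take up secretion, and after weaning LIF, oncostatin M and STAT3 drive their removal. Milk fat depends on lipogenic and sterol enzymes under SREBP transcription factors, while PPAR transcription factors switch on genes for burning fatty acids. Valproic acid blocks the enzymes that take acetyl groups off histones, and it is also a branched fatty acid.

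The stage labels were checked first, because milk transcripts are a hallmark of late pregnancy and lactation. Csn2 (beta-casein) read 13.91, 13.97 and 14.03 on the VPA pregnant arrays, against 13.72 and 13.85 on the VPA virgin arrays. Wap (whey acidic protein) read 14.08, 14.06 and 14.09 with the pregnant label, against 13.41 and 13.80 with the virgin label. Neither difference passed the test (0.18 for Csn2, adjusted p = 0.432, and 0.47 for Wap, adjusted p = 0.105). Both genes read near the top of the scale, so this does not show equal levels. The groups did not overlap for either gene, which was also so for 46% of all genes. Csn2, Wap, Lalba, Csn1s1, Csn3 and Glycam1 read at least 13.41 on each of the 15 arrays and lay at or above percentile 99.49 of the genes of their array. By these markers the arrays labelled virgin go against a label of resting glands, so both stages are called here by their labels only.

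Across the VPA arrays, 825 of 12394 genes passed an adjusted p of 0.05 in limma's moderated test, a share of 6.66%. Of these, 458 rose (3.7%) and 367 fell (2.96%) with the pregnant label. Among the 825 the median size of the change was 1.22, 582 changed by at least 1 and 140 by at least 2. All genes together had a median change of 0.06, with quartiles of -0.32 and 0.47, and that median was -0.02 after quantile normalization. The arrays of the 2 groups did not overlap for 5699 genes (46%), of which the 825 are part. An unadjusted p under 0.05 was reached by 3108 genes.

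**Figure D1:**
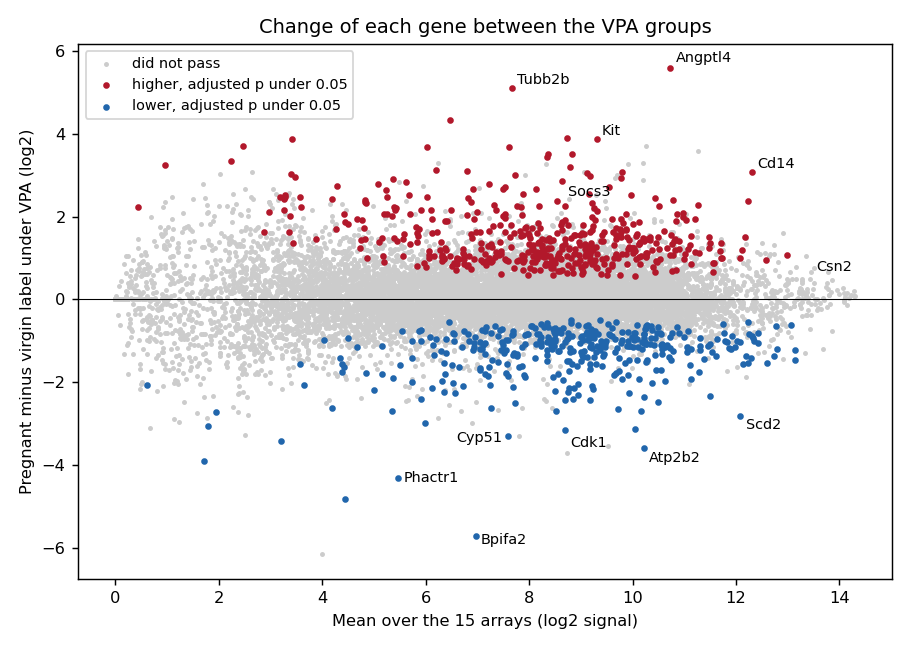
Each point is 1 of 12394 genes, with its mean over the 15 arrays (log2 signal) on the horizontal axis and its change, pregnant minus virgin label under VPA (log2), on the vertical axis. The 458 genes that rose (red) and the 367 that fell (blue) lie on both sides of 0 over the whole range of signal, with Angptl4 at 5.58, Bpifa2 at -5.71 and Csn2 near 0.

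The count of calls depended on the 5 arrays compared. It was 183, 258 and 249 without VPA pregnant replicates 1, 2 and 3, 4 without VPA virgin replicate 1 and 52 without VPA virgin replicate 2. Leaving out a virgin array leaves 1, which is then assumed to vary like the other groups. The direction was the same for all 825 genes in each of these fits. It could not turn, because their VPA groups do not overlap, so it is no sign of stability. Their median size was 1.19 without VPA virgin replicate 1 and 1.27 without replicate 2. The median standard error (SE) was 0.35 in both against 0.27 with all arrays. Of the 4 genes called without VPA virgin replicate 1, the sorting nexin Snx21 and the contactin Cntn6 were among the 825, and Ifnab and Elob were not. These 4 are named because of that count. For each of them VPA virgin replicate 2 lay outside the range of the other 4 VPA arrays, as for Ifnab, which read 4.97, 4.92 and 5.23 with the pregnant label, against 4.78 and 0.71 with the virgin label. The count was 1262 without AzaC virgin replicate 1, which enters only through the shared estimate of spread, and between 561 and 1033 without each other array. Every gene count in the lists below became 0 without VPA virgin replicate 1 and 0 or 1 without VPA virgin replicate 2. Of 96 genes named by rule that passed, 0 and 8 kept their call in these 2 fits, 32, 42 and 35 did so without VPA pregnant replicates 1, 2 and 3, and 71 to 96 without each other array.

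**Figure D2:**
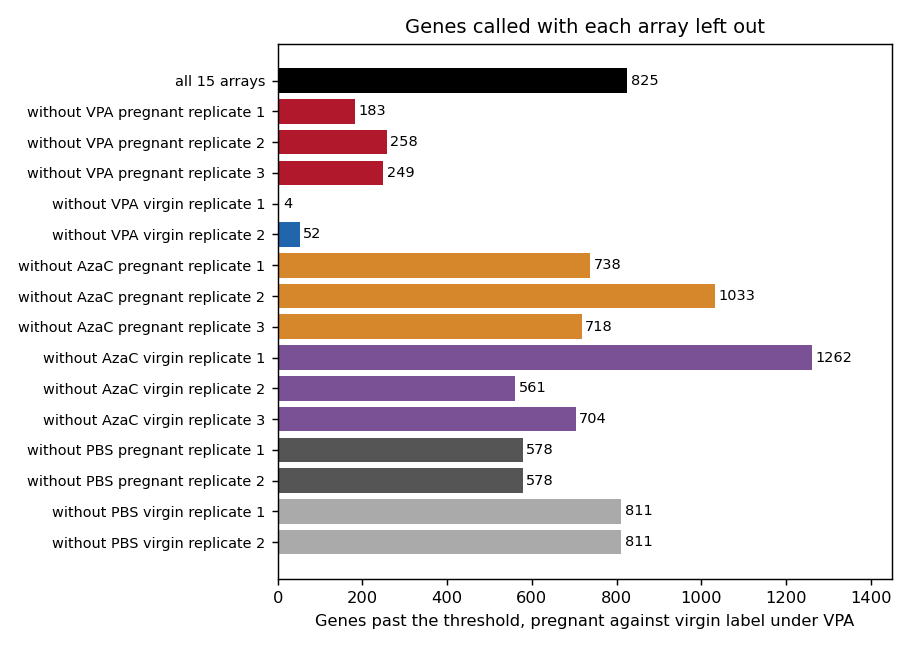
Bars give the number of genes past an adjusted p of 0.05 for the pregnant against the virgin label under VPA, with all 15 arrays (825, top) and with each array left out in turn. The count is 4 without VPA virgin replicate 1 and 52 without VPA virgin replicate 2, and lies between 183 and 258 without a VPA pregnant array.

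RNA quality and sample purity differed among the VPA arrays as well. The difference between the 3' and 5' Gapdh control probe sets, which grows as RNA breaks down, was -0.17, 0.12 and 0.82 on VPA pregnant replicates 1, 2 and 3, against 0.01 and 0.19 on the virgin arrays. Without the 3 arrays over 0.8, of which VPA pregnant replicate 3 is 1, 242 genes passed (86 higher). Transcripts of salivary gland were high on VPA virgin replicate 2: Smr3a, a salivary protein, read 0.80, 1.00 and 3.11 with the pregnant label, against 5.05 and 10.55 with the virgin label. Of the salivary markers measured, 9.09% passed, beside 6.66% of all genes. Salivary markers averaged 4.21, 4.38 and 4.60 on the pregnant arrays, against 4.97 and 6.75 on the virgin arrays, and of 11 measured 1, Bpifa2, passed (0 without each VPA pregnant array or either PBS pregnant array, 2 without either PBS virgin array). Skeletal muscle transcripts were abundant on all 5 arrays, their 19 markers averaging 12.36, 12.40 and 12.28 with the pregnant label, against 11.38 and 11.99 with the virgin label, and 0 of the 19 passed in limma (1 at an unadjusted p under 0.05). The part of these differences in the results below was not tested.

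The largest rise among genes that passed was that of Angptl4, a secreted inhibitor of lipoprotein lipase and a PPAR target. It read 13.43, 13.13 and 13.20 on the VPA pregnant arrays, against 7.82 and 7.52 on the VPA virgin arrays, a change of 5.58 ± 0.80 (SE, adjusted p = 0.0135). The 3 pregnant values stood together near the top of the scale and far above both virgin values. Its second probe set, which was dim, gave 2.39. Tubb2b, a tubulin best known in neurons, read 9.86, 10.30 and 11.62, against 5.80 and 5.19 (change 5.10 ± 1.01 SE, adjusted p = 0.0211), with pregnant replicate 3 highest. Nfe2l3, a transcription factor of the stress-responsive CNC family, read 11.03, 10.94 and 10.79 with the pregnant label, against 7.10 and 6.94 with the virgin label, a rise of 3.90. The phospholipid scramblase Plscr2 rose by 4.34, the sodium-coupled monocarboxylate transporter Slc5a8 by 3.52, the secreted ligand Wnt5b by 3.20 and the magnesium transporter Slc41a2 by 3.11. Fads3, a member of the fatty acid desaturase family, read 7.39, 7.37 and 7.56 on the pregnant arrays, against 3.73 and 4.89 on the virgin arrays, a rise of 3.13 (adjusted p = 0.0164). The zinc finger gene Zfp704 read 9.82, 9.54 and 10.38, against 6.48 and 6.47, with a rise of 3.44. Cxadr, an adhesion protein of tight junctions, rose by 3.67, with 2.08, 1.75 and -0.58 at its other 3 probe sets.

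Among the falls, Phactr1, a regulator of actin and protein phosphatase 1, had the smallest adjusted p. It read 2.92, 2.90 and 2.54 on the VPA pregnant arrays, against 7.19 and 7.01 on the VPA virgin arrays (change -4.31 ± 0.46 SE, adjusted p = 0.00511). With values under 5 set to 5 its change was -2.10, since all 3 pregnant values lie below that floor. Adamts5, an aggrecan-cleaving protease, read 9.11, 8.43 and 7.04, against 11.20 and 11.43 (change -3.12, adjusted p = 0.0318). Atp2b2, the plasma-membrane pump that moves calcium into milk, read 8.87, 8.26 and 7.0 with the pregnant label, against 11.60 and 11.66 with the virgin label, a fall of 3.59 ± 0.74 (SE, adjusted p = 0.0246). For these 2 genes pregnant replicate 3 was the lowest of the 5 arrays. The peptide ligand Apln fell by 2.64, the sterol-binding protein Tmem97 by 2.63 and the metalloreductase Steap1 by 2.44. Bpifa2 had the largest fall among genes that passed (-5.71 ± 1.38 SE, adjusted p = 0.0361), but it is a salivary protein and its virgin values were far apart, at 7.84 and 12.69, against 4.87, 4.53 and 4.28 with the pregnant label.

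**Figure D3:**
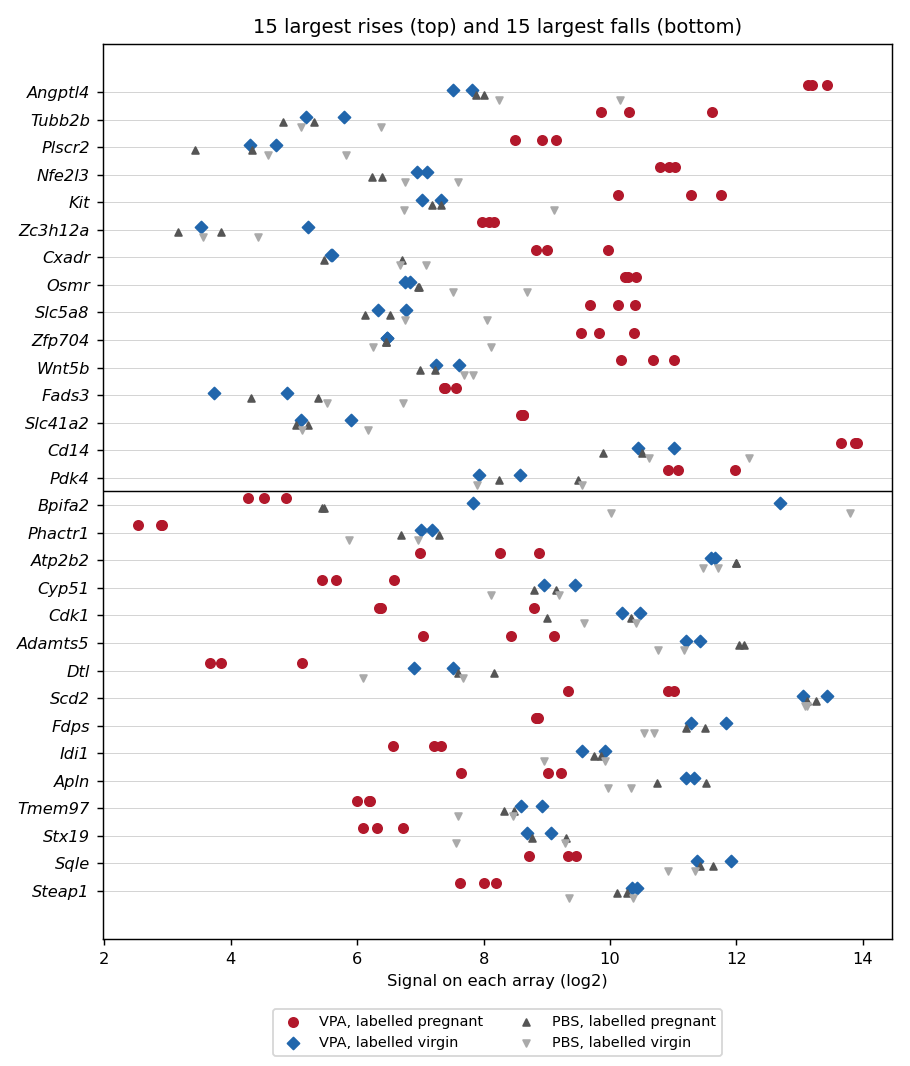
Log2 signal of the 15 largest rises (upper block) and the 15 largest falls (lower block) on each VPA array and, for comparison, each PBS array. The 3 VPA pregnant points (red) lie beyond both VPA virgin points (blue) for each gene, by the rule that chose them, and the PBS points (grey) of both labels lie mostly near the VPA virgin ones.

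The cytokine pathway that acts through LIF, oncostatin M and STAT3 held several of the genes that rose with the pregnant label. Of 28 measured genes of STAT3 signalling and involution, 8 rose (28.6%, beside 6.66% of all genes past the threshold) and 0 fell. The median change was 1.33 over the list beside 0.06 over all genes. For the receptors, Osmr, the oncostatin M receptor, read 10.41, 10.24 and 10.28 on the VPA pregnant arrays, against 6.75 and 6.83 on the virgin arrays, a rise of 3.52 ± 0.60 (SE, adjusted p = 0.0164), and its second probe set gave 1.62. Lifr, the LIF receptor, rose by 1.67 (adjusted p = 0.020), and Il6st, the gp130 chain that both receptors share, by 1.35 (adjusted p = 0.0421). The ligand Lif itself read 6.85, 6.03 and 6.90, against 5.02 and 4.98 (change 1.59, adjusted p = 0.0415). Downstream, Socs3, the feedback inhibitor induced by STAT3, read 10.10, 10.59 and 10.26 with the pregnant label, against 7.34 and 7.58 with the virgin label. Its rise of 2.86 ± 0.29 (SE, adjusted p = 0.00511) and the fall of Phactr1 were the 2 changes that passed a test against a minimum change of 1.5-fold. Cebpd, a transcription factor of involution, rose by 2.13 (adjusted p = 0.0253), though a very dim second probe set gave -0.81, and Pik3r1, a regulatory subunit of PI3 kinase, rose by 1.92 (adjusted p = 0.0222). Cd14, a lipopolysaccharide receptor that rises in involution, read 13.90, 13.87 and 13.65, against 10.44 and 11.01 (change 3.08 ± 0.75 SE, adjusted p = 0.0371). Stat3 was at 1.47 and did not pass (adjusted p = 0.0634), and the acute-phase protein Lcn2, near the top of the scale, was at 0.12. The count of 8 became 2, 5 and 3 without VPA pregnant replicates 1, 2 and 3, 5 without either PBS pregnant array and 16 without AzaC virgin replicate 1. Macrophages, which also express Cd14, are described with the other cell types below.

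Immediate early genes, which respond to growth factors and to tissue digestion, showed a median of 0.92. Of the 28, 6 rose (21.4%, beside 6.66% of all genes) and 0 fell. Junb, an AP-1 subunit, read 9.20, 9.35 and 9.89 on the VPA pregnant arrays, against 6.69 and 6.95 on the virgin arrays (change 2.66 ± 0.51 SE, adjusted p = 0.0202). Klf10, a TGF-beta-induced transcription factor, rose by 2.37, the stress sensor Gadd45b by 1.59 and the survival factor Ier3 by 1.42. Fos was at 1.61 (adjusted p = 0.112), Jun at 2.10 (adjusted p = 0.0974) and Myc at -0.22 (adjusted p = 0.593). Without VPA pregnant replicates 1, 2 and 3 the 6 became 1, 3 and 0, and without AzaC virgin replicate 1 it became 12. Of 17 NF-kB genes 2 rose (11.8%). These were Zc3h12a, an RNase that degrades inflammatory transcripts, and Relb, a subunit of the factor. The count was 4 without AzaC virgin replicate 1 and 1 without each VPA pregnant array. Zc3h12a read 7.97, 8.08 and 8.17 with the pregnant label, against 3.53 and 5.23 with the virgin label, a rise of 3.69 ± 0.61 (SE, adjusted p = 0.0148).

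Lipid metabolism was represented on both sides, with oxidation genes and PPAR targets among the rises and lipid synthesis genes among the falls. Of 26 genes of oxidation and PPAR response, 6 rose (23.1%, beside 6.66% of all genes) and 0 fell, with a median of 0.61. Besides Angptl4, Ucp3, a mitochondrial carrier linked to fat burning, read 11.08, 10.85 and 11.36 on the VPA pregnant arrays, against 8.06 and 8.25 on the virgin arrays (change 2.94 ± 0.38 SE, adjusted p = 0.0112). Pdk4, the kinase that shuts pyruvate dehydrogenase, read 11.97, 10.92 and 11.08, against 7.92 and 8.57 (change 3.08 ± 0.68 SE, adjusted p = 0.0285). The groups did not overlap for either gene, as for 46% of all genes. The acyl-CoA thioesterase Acot1 rose by 2.22 (adjusted p = 0.0232), the entry enzyme of mitochondrial oxidation Cpt1a by 1.63 (adjusted p = 0.0171) and the enoyl-CoA isomerase Eci2 by 1.55 (adjusted p = 0.0179). Acadl, a dehydrogenase of the oxidation cycle, was at 2.07 (adjusted p = 0.0621). The 6 became 5, 4 and 4 without VPA pregnant replicates 1, 2 and 3. Skeletal muscle, whose transcripts are described above, also expresses Ucp3 and Pdk4.

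In cholesterol synthesis the genes that passed were lower. Of 19 measured genes, 9 fell (47.4%, beside 6.66% of all genes) and 0 rose. All 19 changes were negative, and the median was -1.62. Along the pathway, Idi1, which makes dimethylallyl diphosphate, fell by 2.70 ± 0.44 (SE, adjusted p = 0.0148). Fdps, the farnesyl diphosphate synthase, read 8.83, 8.85 and 8.86 on the VPA pregnant arrays, against 11.83 and 11.28 on the virgin arrays, a fall of 2.71 ± 0.50 (SE, adjusted p = 0.0195). Sqle, which oxidises squalene, fell by 2.48, and the cyclase Lss by 1.16. Cyp51, the demethylase acting on lanosterol, read 5.45, 5.66 and 6.59 with the pregnant label, against 9.44 and 8.95 with the virgin label (change -3.29 ± 0.50 SE, adjusted p = 0.0148). For Cyp51 and Fdps the 3 pregnant arrays lay far below both virgin arrays. The late enzymes Msmo1 and Dhcr7 fell by 2.41 and 2.20, the sterol carrier Stard4 by 2.04 and the isomerase Ebp by 0.82. Hmgcs1, the synthase at the entry of the pathway, was at -0.82 (adjusted p = 0.204). The 9 became 6, 7 and 8 without VPA pregnant replicates 1, 2 and 3.

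In fatty acid and triglyceride synthesis 9 of 24 genes fell (37.5%, beside 6.66% of all genes) and 0 rose, and the median was -1.04. Scd2, a stearoyl-CoA desaturase, read 11.01, 10.91 and 9.34 on the VPA pregnant arrays, against 13.43 and 13.05 on the virgin arrays (change -2.82 ± 0.54 SE, adjusted p = 0.020). Scd1, its abundant relative, was at -0.06 (adjusted p = 0.850). Acacb, an acetyl-CoA carboxylase, fell by 2.02, the acetoacetyl-CoA synthetase Aacs by 1.53, the citrate lyase Acly by 1.46, and the desaturases Fads1 and Fads2 by 1.37 and 1.36. Fasn, the fatty acid synthase, read 12.60, 12.80 and 12.17 with the pregnant label, against 13.95 and 13.70 with the virgin label, and did not pass (-1.30, adjusted p = 0.0698). The 9 became 2, 3 and 4 without VPA pregnant replicates 1, 2 and 3. Of 18 glycolysis and lactose genes 4 fell (22.2%), among them the glucose transporter Slc2a1 (-0.91 ± 0.13 SE, adjusted p = 0.0135) and the phosphofructokinase Pfkl (-1.18). These 4 became 1, 2 and 1 in the same 3 fits. For oxidative phosphorylation the share past the threshold was 2.33%, under that of all genes. Of 43 oxidative phosphorylation genes 1 fell and all had a negative change, the lowest -1.09 and the median -0.37, and the count was 0 without each VPA pregnant array, 2 without AzaC pregnant replicate 2 and 3 without either PBS virgin array.

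Genes of cell division that passed were all lower with the pregnant label. Of 30 DNA replication genes 14 fell (46.7%) and 0 rose (median -1.24). Of 29 mitosis genes 9 fell (31%) and 0 rose (median -1.80). The share of all genes past the threshold was 6.66%. Mcm5, a subunit of the replicative helicase, read 7.72, 7.69 and 7.98 on the VPA pregnant arrays, against 10.38 and 9.82 on the virgin arrays (change -2.30 ± 0.43 SE, adjusted p = 0.0196). Dtl, the substrate receptor of a ubiquitin ligase that acts in replication, read 3.84, 3.68 and 5.12, against 7.51 and 6.90 (change -2.99 ± 0.61 SE, adjusted p = 0.0234), with -1.10 at its second probe set. The helicase loader Cdc6 fell by 2.70, the helicase subunit Mcm6 by 1.93, the ribonucleotide reductase Rrm1 by 1.87 and the sliding clamp Pcna by 1.71. In mitosis, Cdk1, the kinase that drives entry into division, read 6.37, 6.35 and 8.80 with the pregnant label, against 10.19 and 10.47 with the virgin label (change -3.16 ± 0.84 SE, adjusted p = 0.0481). Pregnant replicate 3 stood above the other pregnant arrays for Cdk1, and also for the proliferation marker Mki67, which read 6.90, 6.45 and 9.40, against 11.05 and 11.20, and did not pass (-3.54, adjusted p = 0.0609). Cenph, a kinetochore protein, was dim in the pregnant group, at 0.59, 2.61 and 1.38, against 6.30 and 6.42 in the virgin group. The kinases Aurka and Nek2 fell by 2.11 and 1.78 and the cyclin Ccna2 by 1.67. The replication count became 2, 4 and 6, and the mitosis count 2, 2 and 12, without VPA pregnant replicates 1, 2 and 3, and the mitosis count was 17 without AzaC pregnant replicate 2 and 5 without AzaC virgin replicate 2.

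Promoters of replication genes are shown because many carry the letters bound by E2F, the transcription factor family that switches on S-phase genes. The 250 bases before each RefSeq start (GRCm38.p6) were searched on both strands for TTTNGCGC, the E2F letters, with TCACNCCAC (sterol element) and TTTGAA (cell cycle homology region) as the other letters tried. The E2F letters were found in 4 of 13 replication genes that fell and had an entry (30.8%), in 6 of 27 of the whole list (22.2%) and in 214 of 9883 genes of the arrays (2.2%). Overlapping matches on the 2 strands were merged in the capitals below, which mark the E2F letters. The promoters belong to Mcm5 (chr8:75109259-75109508, plus strand), Mcm6 (chr1:128359706-128359955, minus strand) and Dtl (chr1:191575545-191575794, minus strand), and each is written 5′ to 3′ towards the start.
Mcm5: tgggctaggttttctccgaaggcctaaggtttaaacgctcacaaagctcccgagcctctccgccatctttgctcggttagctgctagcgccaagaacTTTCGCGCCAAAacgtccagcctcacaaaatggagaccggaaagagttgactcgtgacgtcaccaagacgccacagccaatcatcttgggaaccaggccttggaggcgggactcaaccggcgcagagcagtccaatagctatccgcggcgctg
Mcm6: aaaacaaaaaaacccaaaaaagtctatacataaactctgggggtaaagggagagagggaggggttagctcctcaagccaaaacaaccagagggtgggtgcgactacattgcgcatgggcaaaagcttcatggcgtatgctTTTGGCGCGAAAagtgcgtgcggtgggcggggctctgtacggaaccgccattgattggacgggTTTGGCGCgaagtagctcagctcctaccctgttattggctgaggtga
Dtl: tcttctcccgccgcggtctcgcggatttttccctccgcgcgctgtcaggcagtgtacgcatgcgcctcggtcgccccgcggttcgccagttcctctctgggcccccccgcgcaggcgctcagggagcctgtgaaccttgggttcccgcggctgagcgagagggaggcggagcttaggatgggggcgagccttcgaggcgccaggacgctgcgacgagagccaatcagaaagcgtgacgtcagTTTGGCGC
In Mcm5 the 2 matches overlap on opposite strands and begin 153 and 149 bases before the start. In Mcm6 there are 3, at 110, 106 and 47 bases, of which the first 2 overlap. In Dtl the 1 match begins 8 bases before the start. The sterol letters were in 0 of 6 cholesterol genes that fell and had an entry, in 1 of 15 of that list (Hmgcs1) and in 128 of 9883 genes (1.3%). The cell cycle letters were in 1 of 6 mitosis genes that fell, in 8 of 24 of that list (33.3%) and in 1364 of 9883 genes (13.8%). A match of letters is a description and not evidence of binding.

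Regulators at the G1 checkpoint divided. Ccnd1, cyclin D1, read 9.55, 8.88 and 9.58 on the VPA pregnant arrays, against 11.42 and 11.18 on the virgin arrays (change -1.96 ± 0.31 SE, adjusted p = 0.0148). Cdkn1b, the p27 inhibitor of cyclin-dependent kinases, rose by 1.27 (adjusted p = 0.0275). Trp53inp1, a p53-induced nuclear protein, read 10.49, 10.14 and 10.72, against 7.29 and 7.64, a rise of 2.99 ± 0.47 (SE, adjusted p = 0.0148). Cdkn1a, the p21 inhibitor often induced by deacetylase inhibitors, read 7.57, 7.80 and 8.01 with the pregnant label, against 7.56 and 8.01 with the virgin label, and the groups overlapped (0.01, adjusted p = 0.989). Ccnd1, Cdkn1b and Trp53inp1 were the 3 of 22 that passed (13.6%, beside 6.66% of all genes). The count was 2 without each VPA pregnant array and 6 without AzaC virgin replicate 1.

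Transcripts of chromatin enzymes were also read. Both groups were injected with VPA, so these differences do not measure an effect of the drug. The 13 measured deacetylase genes include sirtuins, such as Sirt1. Among the 13, Hdac5 rose by 1.12 (adjusted p = 0.0318) and Hdac7 by 0.82 (adjusted p = 0.0466), both class IIa enzymes. That is 2 of 13 or 15.4% beside 6.66% of all genes, and 11 of the 13 changes were positive with a median of 0.74. Both calls ended in each fit without 1 VPA array, and that of Hdac7 also after quantile normalization and without either PBS pregnant array, AzaC pregnant replicate 1 or 3, or AzaC virgin replicate 2 or 3. Hdac1 was at -0.42 (adjusted p = 0.265), and 0 of 9 acetyltransferase genes passed with limma (3 at an unadjusted p under 0.05, and 1 past the threshold without AzaC pregnant replicate 2 or 3). Among 11 genes of DNA methylation only the helicase Hells passed (-2.09, adjusted p = 0.0386), and its call ended in each fit without 1 VPA array and without AzaC virgin replicate 2. Dnmt1, the maintenance methyltransferase, was at 0.17 (adjusted p = 0.647). The share of the DNA methylation list past the threshold was 9.09%, beside 6.66% of all genes. Of 22 imprinted genes 9.09% passed, which is near the share of all genes. Grb10, an adaptor that restrains growth, rose by 1.00, and Impact, a regulator of translation, fell by 0.88. Both calls ended in each fit without 1 VPA or 1 PBS array, and without AzaC pregnant replicate 1 or 3 or AzaC virgin replicate 2, and 1 was left without AzaC pregnant replicate 2 or AzaC virgin replicate 3.

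Secretory and luminal genes gave a mixed account. The milk protein list had median levels of 13.95 with the pregnant label and 13.8 with the virgin label, near the top of the scale. A small change there cannot show that these transcripts were equal. The list had a median change of 0.08 and 1 of 18 passing, 5.56% beside 6.66% of all genes. That gene was the lactoperoxidase Lpo, which read 8.90, 9.05 and 9.84 on the VPA pregnant arrays, against 10.73 and 10.74 on the virgin arrays (-1.47, adjusted p = 0.0275). That call ended without VPA pregnant replicate 1 or 2, and the count was 3 without AzaC pregnant replicate 2 and 2 without replicate 3. In the prolactin pathway the kinase Jak2 rose by 1.19 and the growth hormone receptor Ghr by 1.40, 2 of 14 genes or 14.3% (1 without each VPA pregnant array). The alveolar transcription factor Elf5 was at -0.10 (adjusted p = 0.766). Kit, the receptor kinase of luminal progenitors, read 11.75, 11.28 and 10.12, against 7.32 and 7.02, a rise of 3.88 ± 0.90 (SE, adjusted p = 0.0318) that was 3.15 at its second probe set. Of the list of luminal progenitor genes 13.3% passed. The retinal dehydrogenase Aldh1a3 of the same cells was at 3.29 and did not pass (adjusted p = 0.127), so that with Cd14 2 of 15 progenitor genes rose (4 without either PBS virgin array, 1 without either PBS pregnant array, 0 without each VPA pregnant array). Erbb3 and Erbb2, partner receptors of the EGF family, rose by 2.45 ± 0.41 (SE, adjusted p = 0.016) and 1.51 (adjusted p = 0.0445), while the ligand Egf fell by 1.93 (adjusted p = 0.0278). These 3 of 10 ERBB genes (30%) became 1 when 1 VPA pregnant array was left out, whichever it was. The luminal keratin Krt8 was at 0.93 (adjusted p = 0.201), the basal keratin Krt14 at 0.34 (adjusted p = 0.476), Esr1 at -0.20 (adjusted p = 0.795) and Pgr at 0.24 (adjusted p = 0.898). Of 11 genes of hormone-sensing cells, Cited1, a coactivator of the oestrogen receptor, was the one that passed (-1.99, adjusted p = 0.0275, 9.09% of the list). Its call ended without VPA pregnant replicate 1 or 2.

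Among genes of protein handling in the secretory pathway the calls were falls. Bhlha15, the transcription factor MIST1 of secretory cells, read 8.86, 8.97 and 8.64 on the VPA pregnant arrays, against 11.18 and 10.99 on the virgin arrays, a fall of 2.26 ± 0.27 (SE, adjusted p = 0.00778). Its second probe set, dimmer with a mean over the arrays of 8.08 against 9.94, gave -0.23, so the fall rests on 1 of 2 probe sets. The folding factors Sdf2l1 and Dnajb11 fell by 1.14 and 0.83. With Bhlha15 this makes 3 of 22 genes of the endoplasmic reticulum (13.6%, beside 6.66% of all genes). The chaperone Hspa5 was at -0.30 (adjusted p = 0.615). Psat1, an enzyme of serine synthesis, fell by 2.15 (adjusted p = 0.0481), a call that ended without VPA pregnant replicate 1 or 2, either PBS pregnant array, AzaC pregnant replicate 1, or AzaC virgin replicate 2 or 3. Cytosolic ribosomal protein genes had 0 of 24 past the threshold in limma, 0 at an unadjusted p under 0.05, and 0 past the threshold in each fit without 1 array. Of 23 mitochondrial ribosomal protein genes 4 fell (at most 1 without a VPA array and 2 without either PBS pregnant array, AzaC pregnant replicate 3 or AzaC virgin replicate 2 or 3). Of 19 lysosome genes 3 rose (15.8%), led by the membrane protein Lamp2 at 1.65 (adjusted p = 0.0179). The count was 1, 2 and 1 without VPA pregnant replicates 1, 2 and 3, and 7 without AzaC virgin replicate 1. The shares past the threshold were 17.4% for mitochondrial ribosomal proteins and 6.25% for the list that holds Psat1.

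The remaining lists had at most 2 members past the threshold, and each count fell to 0 without 1 or more of the VPA pregnant arrays. The shares were 22.2% for tight junction, 12.5% for calcium, 8.33% for milk fat globule and 7.69% for heat shock genes. They were 7.69% for IGF, 5.56% for basal and 4.55% for interferon genes, beside 6.66% of all genes. The last 5 of these shares lie near that of all genes. Among 9 tight junction genes the scaffold Tjp1 rose by 1.08 and the tricellular junction protein Marveld2 by 1.12 (1 of these calls was left without either PBS array of either label, AzaC pregnant replicate 3 or AzaC virgin replicate 2). Among 13 heat shock genes the small chaperone Hspb1 rose by 1.22 (adjusted p = 0.0204), a call that ended without VPA pregnant replicate 3. Atp2b2 was the 1 of 8 calcium genes that passed, and its call ended without VPA pregnant replicate 2 or 3. Among 18 basal genes the smooth muscle protein Tagln read 11.34, 11.44 and 11.87 on the VPA pregnant arrays, against 10.88 and 10.28 on the virgin arrays (0.97, adjusted p = 0.0478), and its call ended without each AzaC array but AzaC virgin replicate 1, where 3 basal genes passed. Rab18, a GTPase of lipid droplets, was the 1 of 12 milk fat globule genes that passed, at 12.04, 12.18 and 10.85 with the pregnant label, against 13.30 and 13.15 with the virgin label, with replicate 3 lowest (2 of the 12 passed without AzaC pregnant replicate 2 or 3). Igfbp6, which binds IGF2, rose by 0.87 (1 of 13 IGF genes), and the interferon-induced Ifi35 fell by 0.94 (1 of 22 interferon genes), and each of these counts was 2 without AzaC virgin replicate 1. The calls of Tagln, Rab18, Igfbp6 and Ifi35 also ended without either PBS pregnant array or AzaC virgin replicate 2. Clock genes had 0 of 16 past the threshold in limma and 4 at an unadjusted p under 0.05, and BCL2 family genes had 0 of 13 and 4.

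Among the lists of other cell types, that of fibroblasts had the largest share of members past the threshold, 35.3% beside 6.66% of all genes. All 17 measured fibroblast markers had a positive change, with a median of 1.24, and 6 rose. They averaged 10.18, 9.41 and 9.79 on the VPA pregnant arrays, against 8.87 and 8.32 on the virgin arrays, so that the groups did not overlap. The averages of the macrophage, luminal, basal, skeletal muscle, adipocyte and nerve lists did not overlap either, and were higher with the pregnant label. Those of the erythroid and salivary lists did not overlap and were lower. The endothelial, neutrophil, lymphocyte and skin averages overlapped. Mfap5, a microfibril protein, rose by 2.05 (adjusted p = 0.020), the collagens Col1a2 and Col3a1 by 1.51 each (adjusted p = 0.0403) and the matrix protein Postn by 1.41 (adjusted p = 0.0308), and the second probe set of Col3a1 gave 0.10. The 6 became 0, 4 and 0 without VPA pregnant replicates 1, 2 and 3, and 3 without either PBS pregnant array or AzaC virgin replicate 2. Macrophage markers averaged 9.12, 9.00 and 8.97, against 8.27 and 8.18, with 1 of 16 rising, the scavenger receptor Cd163 (2.17, adjusted p = 0.0273), a share of 6.25% that lies near that of all genes. The macrophage count was 5 without AzaC virgin replicate 1 and 0 without each VPA pregnant array. Luminal epithelial markers averaged 11.35, 11.46 and 11.94 with the pregnant label, against 10.69 and 10.65 with the virgin label, and 1 of 14, the transcription factor Ehf, rose (1.22, adjusted p = 0.0235), a share of 7.14%, also near that of all genes. The luminal count was 6 without AzaC virgin replicate 1, 2 without AzaC pregnant replicate 2 and 0 without VPA pregnant replicate 3. Endothelial, adipocyte, neutrophil, lymphocyte, skin, erythroid and nerve lists had 0 members past the threshold in limma, and 0 to 3 of each list reached an unadjusted p under 0.05. In cells from digested glands, more cells of a type and more RNA per cell cannot be told apart. The TGF-beta list had 18.2% of its members past the threshold, beside 6.66% of all genes. TGF-beta genes, which act on stroma and epithelium alike, had 4 of 22 rising, led by Ltbp1, which holds latent TGF-beta in the matrix (2.78, adjusted p = 0.0192), and 0, 1 and 1 without VPA pregnant replicates 1, 2 and 3, with 7 without AzaC virgin replicate 1 and 2 without any 1 PBS array, AzaC pregnant replicate 1 or AzaC virgin replicate 2.

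**Figure D4:**
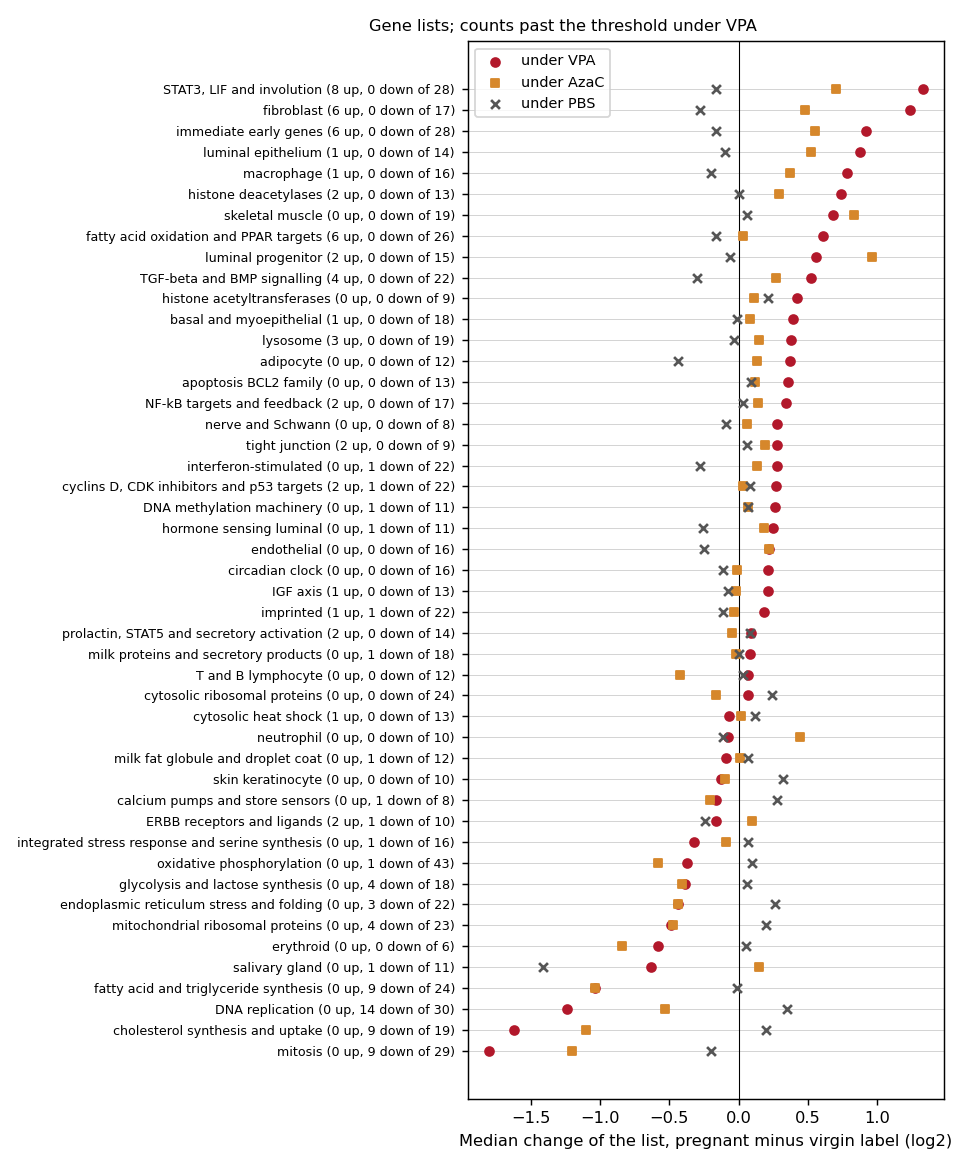
Median change (log2, pregnant minus virgin label) of each gene list under VPA (red circles), AzaC (orange squares) and PBS (grey crosses), with the number of members that rose and fell under VPA over the number measured. Under VPA the medians run between 1.33 for STAT3, LIF and involution and -1.80 for mitosis, and for both lists the PBS median (-0.16 and -0.20) lies closer to 0.

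The same labels were compared under PBS and AzaC on arrays that enter the VPA comparison only through the shared estimate of spread. The Gapdh difference was 0.09 and 0.47 on the PBS pregnant arrays, against -0.06 and 1.23 on the PBS virgin arrays, the last being the largest of the series. Salivary markers averaged 4.36 and 4.38, against 7.88 and 5.82, with PBS virgin replicate 1 the highest of the series. The part of these differences in the PBS results was not tested. Under PBS 1 gene passed (0.00807%), with 521 at an unadjusted p under 0.05. Of the 458 genes that rose under VPA, 115 (25.1%) had a positive change under PBS, beside 52.9% of all genes, and their median there was -0.17. Of the 367 that fell, 73 (19.9%) had a negative change under PBS, beside 45.7% of all genes, with a median of 0.23. Socs3 read 6.79 and 6.52 on the PBS pregnant arrays, against 6.93 and 6.88 on the PBS virgin arrays, and Angptl4 read 8.01 and 7.88, against 10.16 and 8.25. Cyp51 read 9.14 and 8.79, against 8.11 and 9.20, and Phactr1 read 6.69 and 7.29, against 5.87 and 6.97. On these 4 genes both PBS groups lay nearer to the VPA virgin than to the VPA pregnant values.

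A direct test asked whether the stage difference under VPA differed from that under PBS, and 39 genes passed (0.315%; 15 higher and 24 lower). Angptl4 had the largest positive difference, 6.84 ± 1.18 (SE, adjusted p = 0.0483). Cxadr was at 4.46, the desaturase-like gene Fads3 at 4.40, Trp53inp1 at 3.93, Ucp3 at 3.66 and Socs3 at 3.11 (adjusted p = 0.0279 for Socs3). Phactr1 had the largest negative difference, -4.88 ± 0.69 (SE, adjusted p = 0.0279), followed, among genes with a mean of at least 7 in the higher group, by Ccnd1 at -2.97 and the cytokine Il15 at -2.95. The size for Phactr1 rests on VPA pregnant values under the floor of 5, and its change under VPA was smaller at that floor. Kit was at 4.55 (adjusted p = 0.113) and Cyp51 at -3.61 (adjusted p = 0.0615), so for neither was a dependence on the injection shown. The count of 39 was 0 without VPA virgin replicate 1 or VPA pregnant replicate 1 or 2, 10 without VPA virgin replicate 2, 5 without VPA pregnant replicate 3, 2 and 3 without PBS pregnant replicates 1 and 2, and 337 without AzaC virgin replicate 1. Without PBS virgin replicates 1 and 2 it was 31 and 80.

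Under AzaC 152 genes passed (1.23%), 15 higher (0.121%) and 137 lower (1.11%). The choice of the 825 genes by their VPA values sets the size of their VPA medians, so sizes are given side by side only. Of the 458 genes that rose under VPA 444 (96.9%) had a positive change under AzaC, beside 51.7% of all genes. Their median was 0.65 beside 1.33 under VPA, and 10 passed. Of the 367 that fell 363 (98.9%) had a negative change, beside 47.6% of all genes. Their median was -0.82 beside -1.14, and 105 passed. No gene passed the test of the difference between VPA and AzaC in limma (0 of 12394, with 434 at an unadjusted p under 0.05). Among the smallest p-values in each direction were those of Ucp3, whose stage difference was larger by 2.15 ± 0.51 (SE) under VPA, and the mitotic kinase Nek2, at -1.60 ± 0.43 (SE), both with an adjusted p of 0.998. Median changes of the cholesterol list were -1.62 under VPA and -1.10 under AzaC, and those of fatty acid oxidation and PPAR targets 0.61 and 0.03. The count of 152 was 0, 4 and 5 without AzaC virgin replicates 1, 2 and 3, 5, 501 and 7 without AzaC pregnant replicates 1, 2 and 3, and 2 without either VPA virgin array. For Angptl4 the AzaC pregnant arrays read 13.15, 13.23 and 12.18, against 9.06, 11.66 and 12.28 on the AzaC virgin arrays, where the groups overlap.

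Each other array was also placed, for the 825 genes, on a scale that runs between the mean of the VPA virgin arrays (0%) and that of the VPA pregnant arrays (100%). The AzaC pregnant arrays had median positions of 111.2, 76.7 and 110.8%, and the AzaC virgin arrays 18.8, 47.3 and 57.9%. The PBS pregnant arrays lay at 7.7 and 13.1%, and the PBS virgin arrays at 33.8 and 17.9%. On PBS pregnant replicate 1, 757 of the 825 genes were nearer to the VPA virgin mean, and on AzaC pregnant replicate 3, 21 were. For these genes the PBS arrays of both labels lay nearer to the VPA virgin mean, and the AzaC pregnant arrays nearer to the VPA pregnant mean.

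**Figure D5:**
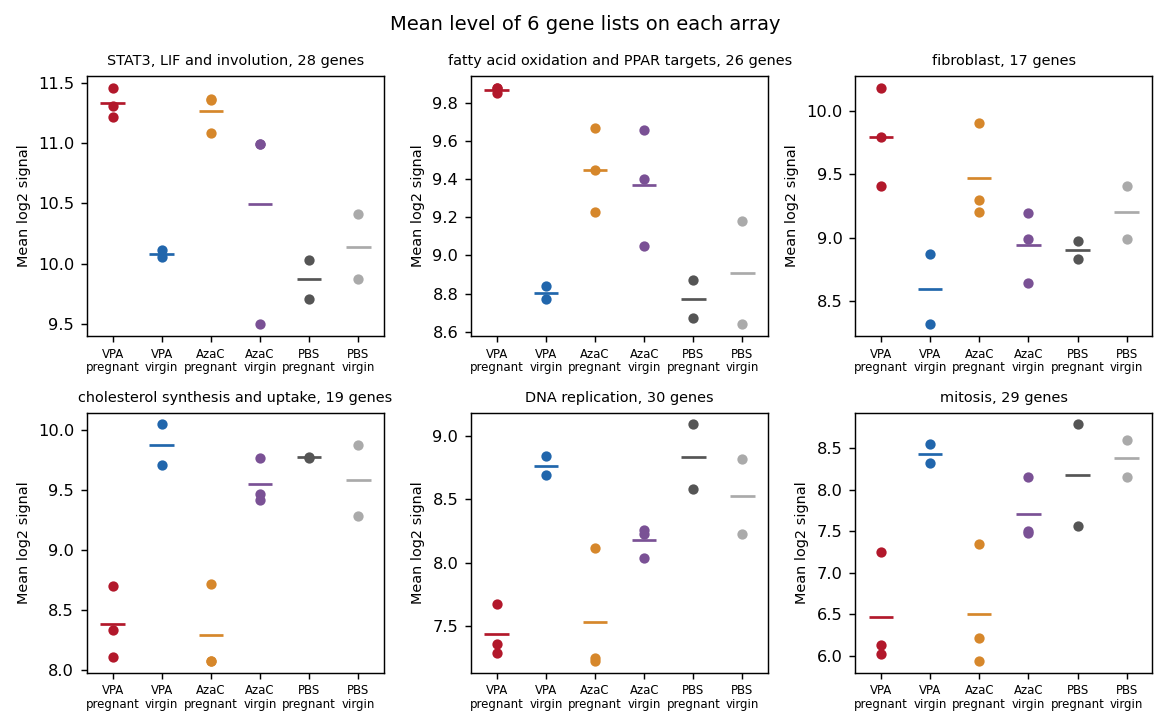
Mean log2 signal of the measured members of 6 gene lists on each array, by group, with a bar at the group mean. For each list the 3 VPA pregnant arrays lie apart from both VPA virgin arrays: for STAT3, LIF and involution they read 11.46, 11.31 and 11.22, against 10.06 and 10.11. Lists not shown, such as those of macrophages and oxidative phosphorylation, lie apart as well.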

How the data were processed

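The mRNA of mammary epithelial cells was turned into biotinylated cRNA and read on 15 Affymetrix arrays, per the labels' protocols. The authors deposited 1 table of processed values for 22690 probe sets. These were taken as log2 signals, because they run between 0 and 14.48, the range of Affymetrix intensities as powers of 2. The log base and the background, summary and normalization methods are not given in the sources used here. Array medians lay between 7.22 and 7.47, interquartile ranges between 3.73 and 4.05, and 2.29 to 2.59% of probe sets per array were at 0, so the deposited log2 values were used without further scaling. A difference therefore assumes the authors' scaling.

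The platform annotation of 2016 gave a single gene symbol for 20393 probe sets, several for 691 and none for 1606 (64 control probe sets among them). Those with several or none were left out, each of 12394 genes was read from its brightest probe set over 15 arrays, and no filter on dim genes was applied. Symbols of 12370 genes matched RefSeq's current table (GRCm38.p6). No genome was given, so coordinates come only with RefSeq's promoter sequences.

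The main model had a mean per group over all 15 arrays, fitted in R 4.3.3 by limma 3.58.1 (lmFit, eBayes, 9 residual and 2.31 prior degrees of freedom). Moderated tests were two-sided, with Benjamini-Hochberg adjustment across the 12394 genes and calls at an adjusted p under 0.05. The same fit gave the stage difference under PBS and AzaC and the difference of these stage differences. The fit was tested on simulated data. The main model did not pair arrays by replicate number, since the labels do not say that these numbers pair them. Correlations of deviations between same-numbered arrays of different groups lay between -0.17 and 0.33, and were 0.039 and 0.127 between the VPA groups. In a group of 2 arrays the deviations mirror each other, so these correlations cannot exclude a pairing.

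Genes named are the 15 largest rises and falls among genes past the threshold whose arrays do not overlap and whose higher group averages at least 7, the 6 largest in each direction for the tests of a difference (or the 3 smallest p), up to 4 passing members (or the 2 smallest p) of each of 47 lists, and a fixed set of 16 genes. RIKEN, Gm and LOC names were skipped. The text leaves out some of these genes, and members of a list beyond these were named to show its steps. Of 907 list entries 809 were measured. The comparison, the lists, the motifs and the tests were chosen with earlier results of these data known. Figures were drawn with matplotlib 3.10.9 in Python 3.11.15.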

Additional observations from a re-analysis of the deposited data

Results flagged for a closer look

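The stage difference under VPA differed from that under PBS, by a test of the difference itself with limma, for 39 genes, 15 higher and 24 lower. Positive differences (stage difference under VPA minus that under PBS, log2) were 6.84 for Angptl4 (adjusted p = 0.0483), 4.46 for Cxadr, 4.40 for Fads3, 3.93 for Trp53inp1 (adjusted p = 0.0491 for each of these 3), 3.66 for Ucp3 (adjusted p = 0.0325) and 3.11 for Socs3 (adjusted p = 0.0279). In all 6 the change was positive under VPA and negative under PBS, as for Trp53inp1, at 2.99 under VPA and -0.94 under PBS. The other probe sets of Cxadr changed by 2.08, 1.75 and -0.58 under VPA.

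Negative differences were -4.88 for Phactr1 (adjusted p = 0.0279), -2.97 for Ccnd1 (adjusted p = 0.0325), -2.95 for the lymphocyte growth factor Il15 (adjusted p = 0.0444), -2.63 for Bhlha15 (adjusted p = 0.0325), -2.54 for Fam160a2, an adaptor of endosome transport, and -2.54 for Rrp12, a ribosome assembly factor (adjusted p = 0.0393 for both). Il15 changed by -2.23 under VPA and 0.72 under PBS. The second, dimmer probe set of Bhlha15 changed by -0.23 under VPA. For Phactr1 the size rests on VPA pregnant values under the floor of 5. The 39 calls rest on 2 to 3 arrays per group, and their cause was not tested.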

How the results depend on the processing

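With all 15 arrays kept, the 825 genes called under VPA became 926 after quantile normalization, 1187 without genes of a mean under 7.04 and 792 with a gene's probe sets averaged. The count was 1216 with trend and robust settings, 819 with values under 5 set to 5 and 1318 with the Gapdh 3' minus 5' difference as a covariate. It was 2 against a minimum change of 1.5-fold and 239 with the replicate number as a block. Whether replicate numbers pair the arrays is not known. With only the 5 VPA arrays fitted it was 421, and without the 3 arrays of highest Gapdh difference, chosen after seeing the data, 242. Leaving out 1 array gave 4 to 1262. The direction of the 825 was kept by all that were tested, except 3 that turned with averaged probe sets (822 kept) and 27 whose change was 0 at the floor of 5 (798 kept). With arrays left out it could not turn, because the VPA groups do not overlap for these genes. In the same order of settings where the count moved by over 1.5 times, the stage difference under PBS gave 0 genes without dim genes, 0 with trend, 0 with its arrays only, 0 with the replicate block, 4 at the floor, 2 with the covariate, 0 against 1.5-fold and 3 without the 3 arrays, with 0 to 22 when 1 array was left out. That under AzaC gave 4 after quantile normalization, 376 without dim genes, 271 with trend, 2 with its arrays only, 64 with the block, 258 at the floor, 359 with the covariate, 0 against 1.5-fold and 0 without the 3 arrays, with 0 to 501 when 1 array was left out. VPA minus PBS gave 16 after quantile normalization, 276, 242, 84, 0 with the block, 147, 83, 0 and 92 in that order, with 0 to 337 when 1 array was left out. VPA minus AzaC gave 1 at the floor, 0 with the block, and 0 to 3 when 1 array was left out. Why these counts move was not tested. Dim genes and those at the top of the scale are the least secure.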
